A study of Mus musculus with 472 samples.

Results

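Among the full-length single-cell libraries of the mouse meninges, a small set of wells received far more counts than the rest. The wells compared here were chosen by their measured values: a full-length well was kept when its lowest gene value was 0 and 500 or more genes were counted in it. A kept well was called deep when its total was 80000 counts or more. The rule kept 39.8% of the 472 wells of the series. Of these, 25 wells were deep (5.30% of all wells), and the remainder are called the other wells. Satellite-like genes took 80.3% of the counts of the deep wells, and receptors of the nose and tongue took a larger share of the remainder than in the other wells. Housekeeping, ribosomal protein, smooth muscle and macrophage genes took a smaller share of it.

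The meninges are the membranes around the brain and hold fibroblasts, arachnoid cells, vessel cells and immune cells. Major satellite DNA is a short repeat packed in long arrays around the centromeres of mouse chromosomes, and a few annotated genes are made of the same repeat. Such repeats are kept as closed chromatin and give little RNA in most cells. Olfactory and vomeronasal receptors detect odours and pheromones, and each is normally expressed in sensory neurons of the nose. Housekeeping and ribosomal protein messages are present in almost every living cell.

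Cells came from male C57BL/6 mice with no engineered allele or treatment named, aged 3 or 18 months, from the anterior or posterior part of the meninges. Each age was 1 pool of 6 mice, and single cells were dispensed into the wells of an ICELL8 chip, a nanowell plate for single-cell libraries. The deep and other wells numbered 2 and 13 in the anterior 3 months group, 7 and 42 in the posterior 3 months group, 9 and 48 in the anterior 18 months group, and 7 and 60 in the posterior 18 months group. Groups follow the well titles, and 5 deep and 43 other wells carry a different age in their age field. Wells of 1 pool are not replicates, so no difference between deep and other wells was tested, and every interval given is a 95% exact binomial interval that covers counting error only. No molecular identifiers are mentioned in the labels, so counts may include copies of the same molecule. The kept 3-prime wells, 73 wells of a second library type, serve as a reference. Their titles name anterior and posterior 3 months and posterior 18 months only. The anterior 18 months group has no 3-prime wells, so the reference does not cover it.

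The deep wells had totals from 93452 to 311211 with a median of 143229, against 1221 to 79974 with a median of 15888 in the other wells. The well just above the limit had 93452 counts and 2809 genes, and the well just below had 79974 counts and 2534 genes. These 2 wells were also close in satellite-like share, at 66.8% and 76.4%. Deep wells counted 828 to 6249 genes with a median of 2809, and other wells 502 to 4242 with a median of 1013. The total and the gene number chose the wells and are given as a description. No well with under 500 genes had a total above 26232, so the gene limit removed no deep well. The 18 deep wells with title number 2 and the 7 with title number 1 compare with 81 and 82 of the other wells. In the posterior 18 months group all 7 deep wells carried number 2, where the other wells had 25 of number 2 and 35 of number 1. The labels do not say what the number stands for. No chip position was shared between titles.

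Satellite-like genes are 13 annotated genes at 3 places in the GRCm38 build. The 2 on chromosome 2, Gm10800 and Gm10801, lie between 98662237 and 98667301. The 10 on chromosome 9 lie between 3000282 and 3038316, where the lincRNA gene Gm26870 on the minus strand spans the coding models of the plus strand. Gm21738 lies on chromosome 14 from 19415857 to 19418930. The first 240 bases of the transcripts of Gm10800 and Gm21738 are shown because these genes had the most counts of the list and sit on different chromosomes. Both are on the minus strand, 5′ to 3′, from GENCODE M21 transcripts on GRCm38, and capitals mark bases inside a run of 25 that also occurs in the other transcript on either strand.
Gm10800: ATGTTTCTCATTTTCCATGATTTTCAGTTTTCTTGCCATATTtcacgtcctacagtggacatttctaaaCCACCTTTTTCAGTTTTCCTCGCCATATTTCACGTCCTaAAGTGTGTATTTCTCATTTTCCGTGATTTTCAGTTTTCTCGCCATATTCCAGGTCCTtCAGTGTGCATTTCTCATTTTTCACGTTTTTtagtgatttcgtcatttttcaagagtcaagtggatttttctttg
Gm21738: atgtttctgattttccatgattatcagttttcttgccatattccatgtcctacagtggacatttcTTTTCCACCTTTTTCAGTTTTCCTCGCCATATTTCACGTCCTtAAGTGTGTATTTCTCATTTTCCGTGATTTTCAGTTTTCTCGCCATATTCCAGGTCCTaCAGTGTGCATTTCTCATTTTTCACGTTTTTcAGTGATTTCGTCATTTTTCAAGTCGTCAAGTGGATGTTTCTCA
Over the whole transcripts 61.1% and 60.8% of the bases were of this kind. Gm10800 matched itself best when shifted by 0.225 kb, at 56.3% identity, and next by 58 bases, at 51.2%. Between 44.5% and 95.3% of the 25-base words of each listed gene occurred in other listed genes. None of the other 55437 annotated genes searched held any of these words.

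Since satellite-like counts are most of the total that chose the wells, their level is a description. The raw satellite-like count ran from 62433 to 245235 with a median of 113426 in deep wells, and from 32 to 61073 with a median of 6936 in other wells. Their share of all counts ran from 53.2% to 94.8% with a median of 81.8% in deep wells, and from 0.683% to 87.6% with a median of 50.5% in the other wells. The share overlapped between the classes, with 70 other wells at or above the lowest deep well and 8 deep wells above the highest other well. Over summed counts the share was 80.34% (80.30 to 80.38) against 54.60% (54.54 to 54.65). It was higher in the deep wells of each title group, at 76.5% against 41.9% in anterior 3 months, 76.4% against 52.4% in posterior 3 months, 83.4% against 57.2% in anterior 18 months and 81.3% against 55.5% in posterior 18 months.

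**Figure D1:**
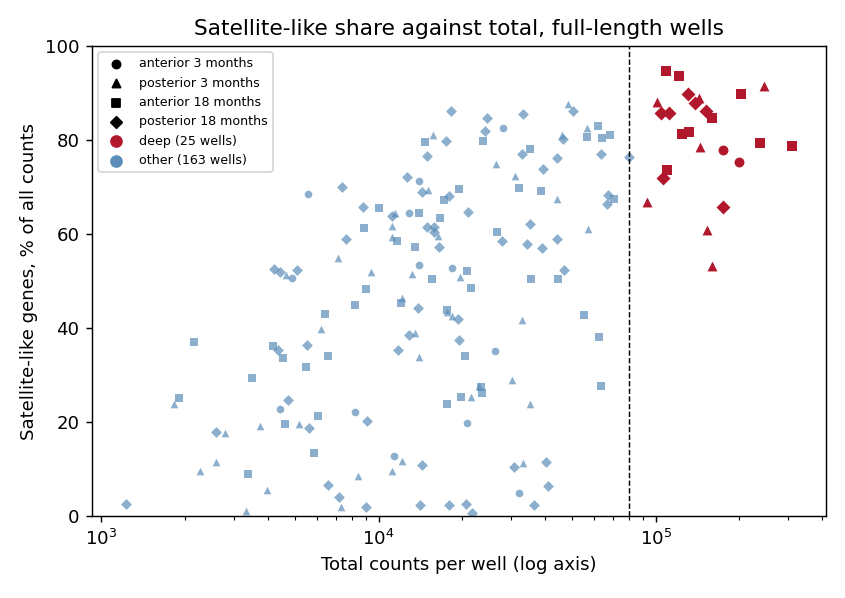
Share of satellite-like genes in each full-length well (vertical axis, % of all counts) against the total count of the well (horizontal log axis). Red symbols are the 25 deep wells, blue symbols the other wells, shapes mark the title group and the dashed line is the limit of 80000. Deep wells sit between 53.2% and 94.8%, while other wells spread from 0.683% to 87.6%.

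The make-up of the satellite-like counts hardly varied. Gm10800 alone took 48.9% of all counts in deep wells and 33.6% in other wells, yet 60.8% and 61.5% of the satellite-like counts. In single deep wells its share of satellite-like counts stayed between 58.2% and 63.1%, and in other wells, many with few such counts, between 36.1% and 93.3%. All 13 genes were counted in all 25 deep wells. The 3-prime wells had 0 counts for 12 of the 13 and 38 counts for Gm26870.

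Outside the satellite-like genes, the classes did not scale with the total in the same way. The silent receptors, 1483 genes of 5 sensory receptor families not known from meninges, had 160 to 1528 raw counts per deep well with a median of 489. Other wells had 0 to 503 with a median of 38, so the deep median was 12.9 times as high. Mitochondrially encoded genes had a median of 1277 counts against 462, a ratio of 2.76. Cytosolic ribosomal protein genes had a median in deep wells 1.3 times the 86 counts of the other wells, and 10 deep wells lay below the median of the other wells. The 20 housekeeping genes had a median of 100 counts per deep well, 0.971 of the median of the other wells, and 13 deep wells were below the median of the other wells. A deep well thus had about as many raw counts from housekeeping genes as another well with a much smaller total. The deep well with 88.2% satellite-like counts, from the posterior 3 months group, had 0 housekeeping counts.

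**Figure D2:**
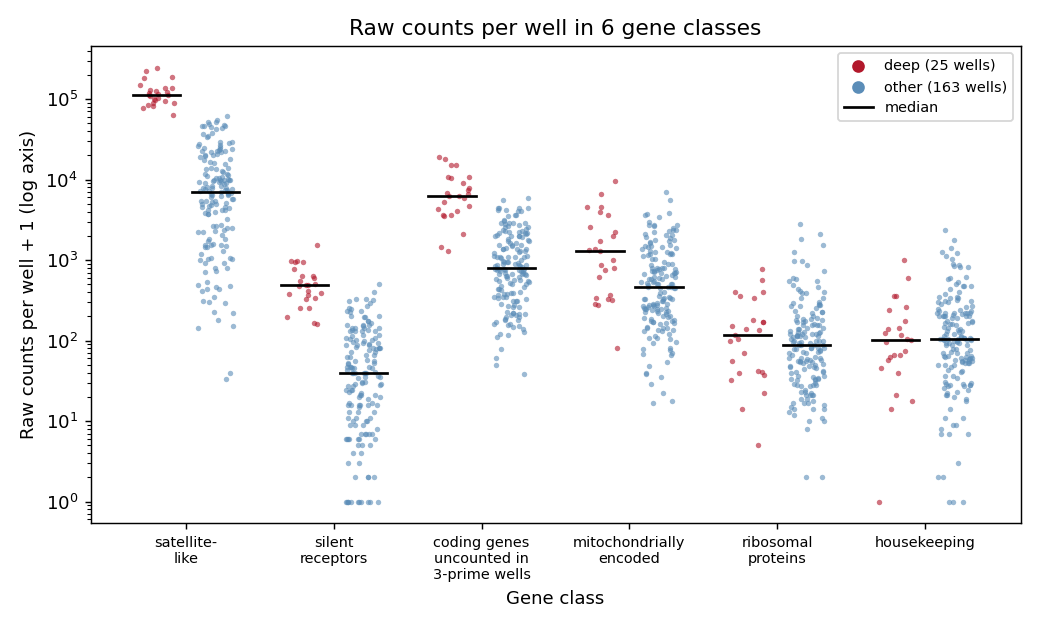
Raw counts per well plus 1 (vertical log axis) for 6 gene classes (horizontal axis), with deep wells in red, other wells in blue and the median as a black bar. The medians lie far apart for satellite-like genes (113426 and 6936) and silent receptors (489 and 38) and close together for housekeeping genes (a ratio of 0.971).

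Silent receptors took 0.536% to 4.44% of the counts outside satellite-like genes in deep wells, with a median of 2.3%. In the other wells the share ran from 0 to 3.12% with a median of 0.521%. All 25 deep wells lay above the median of the other wells, and 4 lay above the highest of them, while 80 other wells reached the lowest deep well. Over summed counts the share was 1.82% against 0.733%, a ratio of 2.5 (2.419 to 2.542), and 458 counts or 0.00943% in the 3-prime wells. The ratio was 6.98 in anterior 3 months with only 2 deep wells, 2.05 in posterior 3 months, 1.94 in anterior 18 months and 3.03 in posterior 18 months. Taken over all counts, satellite-like ones included, the receptor share differed little, with a ratio of 1.07.

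Each receptor family took a larger share of the counts outside satellite-like genes. Olfactory receptors took 0.958% against 0.434%, and vomeronasal type 1 receptors, which detect pheromones, 0.522% against 0.166%. Vomeronasal type 2 receptors took 0.287% against 0.108%, bitter taste receptors 0.0261% against 0.0109%, and trace amine-associated receptors 0.0238% against 0.0145%. Of 7 trace amine-associated receptors measured one by one, only 2 were 2-fold higher and 2 were 2-fold lower. Of all genes measured on this scale, 41.3% were 2-fold higher and 24.7% lower. Other lists with no known role in meninges also took larger summed shares. All protein-coding genes with no count in the 3-prime wells had a ratio of 1.94 on this scale, against 1.645 for the trace amine-associated receptors. Keratin-associated proteins of hair had a ratio of 3.09, defensins of gut and epididymis 2.6, and testis genes of the Speer, Catsper and Spata families 2.03. Of their measured members, 16 of 20, 9 of 12 and 17 of 33 were 2-fold higher, and the testis genes lay close to the 1.94. Secreted and membrane mucins had a ratio of 3.00, which was 1.632 without Muc5b, the gene that held most of their counts in deep wells. The Pramel and Pramef germline genes had a ratio of 1.09 whose interval of 0.866 to 1.4 included 1.

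Receptor counts were patchy from well to well. A deep well counted at least 18 different receptors, with a median of 56, and other wells 0 to 88 with a median of 10. Each receptor counted had a mean of 8.66 counts in the median deep well and 3.63 in the median other well. Of the 795 receptors counted in any deep well, 55.1% were counted in 1 deep well and 62 receptors in 5 or more. The top receptor differed between almost all deep wells, with 24 different genes among the 25, and took 3.47% to 20.3% of the receptor counts of its well. By contrast, none of the 20 housekeeping genes was restricted to 1 deep well, and the cytoskeletal gene Actb was counted in 84% of deep wells and 88.3% of other wells.

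Receptors counted in more deep wells had more of their sequence in common with other receptors, which was clearest in 1 family. Among receptors with an annotated transcript, the median share of 25-base words that also occurred in another receptor was 91.2% for those counted in 5 or more deep wells, against 15.5% for receptors counted in 2 to 4 deep wells, 10.0% for those counted in 1 and 8.99% for the 687 counted in none. Of the 62, 40 were vomeronasal type 1 receptors, 12 type 2 receptors and 10 olfactory receptors. The type 1 receptors set the high value, with a median of 97.3% for these 40 and 19.3% for those in 2 to 4 deep wells. The 10 olfactory receptors had a median of 16.8% against 9.81%. The 12 type 2 receptors had 32.9%, below the 36.8% of type 2 receptors in 2 to 4 deep wells. All but 1 of these 40 type 1 receptors lie on chromosome 7, between 5401681 and 23251682 on GRCm38. The first is Vmn1r58, and the next, Vmn1r91, starts at 20099680. Vmn1r107 and Vmn1r95, both on chromosome 7 (plus strand, 20668918 to 20669841 and 20193710 to 20194633), were counted in the most deep wells, 13 each, and are shown for that reason. Their transcripts of 924 bases differ at 5 positions (99.5% identity), and the first 120 bases, 5′ to 3′ from GENCODE M21, are given with the differing bases in capitals.
Vmn1r107: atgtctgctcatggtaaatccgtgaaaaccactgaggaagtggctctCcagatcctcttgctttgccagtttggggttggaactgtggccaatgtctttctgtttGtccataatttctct
Vmn1r95: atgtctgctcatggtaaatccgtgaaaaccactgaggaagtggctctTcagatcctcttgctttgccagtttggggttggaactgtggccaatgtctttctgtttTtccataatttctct
How reads that match several such copies were assigned is not given in the sources used here, so the counts of single members are uncertain. Vmn1r107 was at 40.0 CPM over all counts in deep wells and 23.7 CPM in other wells (CPM is a summed count scaled to a common total), and Vmn1r95 was at 56.9 and 22.6 CPM. The 73 type 1 receptors in this stretch of chromosome 7 took 0.429% of the counts outside satellite-like genes in deep wells and 0.120% in other wells. The stretch was drawn around receptors picked for being counted in 5 or more deep wells, so its level in deep wells is a description and its ratio is not given. They were counted in 24 deep wells and 80 other wells and had 0 counts in the 3-prime wells. Vmn1r121, a further member, was at 40.0 CPM, from 8 deep wells, and 34.3 CPM, from 8 other wells, and its direction turned with several choices, from a log2 difference of -3.95 with title number 1 to 3.14 with title number 2.

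The receptor share moved with the satellite-like share in both classes. Across the other wells Spearman's rho between the 2 shares was 0.74, and across the 25 deep wells it was 0.58; the points share their chips and library preparation, and both shares depend on the same total. Within the deep wells rho of the receptor share with the total was -0.29. The 70 other wells whose satellite-like share lay in the range of the deep wells had a median receptor share of 1.2%, and the 93 below that range 0.282%, against 2.3% in the deep wells. Housekeeping genes went the opposite way, with medians of 0.867% and 2.5% in those 2 sets of other wells and 0.395% in deep wells. Ribosomal protein genes had medians of 0.745%, 1.81% and 0.538%. By median, the satellite-rich other wells lay between the rest and the deep wells on these 3 measures. Mitochondrially encoded genes did not follow that order, with 7.32% in the satellite-rich other wells, 6.55% in the rest and 4.79% in deep wells.

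**Figure D3:**
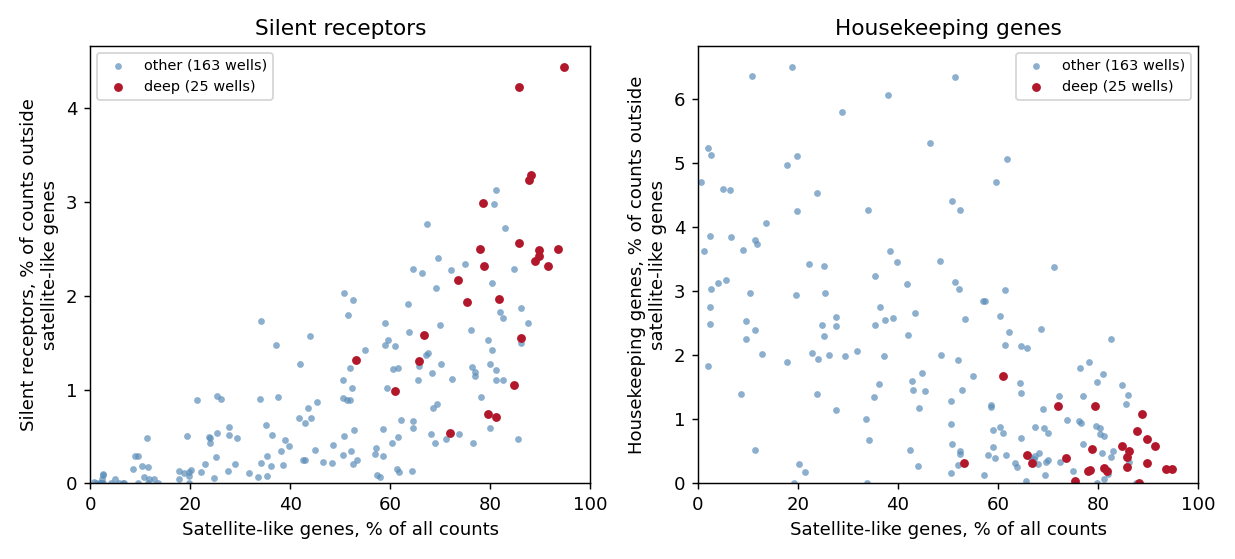
Silent receptors (left) and housekeeping genes (right) as % of the counts outside satellite-like genes in each well (vertical axes), against the satellite-like share of all counts (horizontal axes); red points are the 25 deep wells and blue points the other wells. Deep wells lie at the satellite-rich end, with a median of 2.3% for receptors and 0.395% for housekeeping genes.

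A second split, added after the data were seen, took the 25 wells with the most counts outside satellite-like genes. Only 14 of them were deep by total. With this split the receptor share was 1.112% in the 25 wells and 1.063% in the rest, the satellite-like share was 65.8% and 69.5%, and the longest genes, described further on, took 42.2% and 42.0%. Ribosomal protein genes took 1.8% and 1.4%, and housekeeping genes 1.5% and 1.8%. With this split the differences in receptor share and in long genes were small, and that in ribosomal protein share had the opposite sign. The satellite-like difference also changed sign. Choosing wells by counts outside satellite-like genes favours wells with a low satellite-like share, so that share is only a description. Mitochondrially encoded genes were lower in the 25 wells by more than in deep wells, at 6.19% against 9.22%. Some single genes also kept large differences of the same sign, with log2 differences of -4.99 for Tpm2, -3.28 for Sparcl1, 2.194 for Zfp980 and 2.561 for Zfp992.

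Deep wells spread their remaining counts over more genes. With each well thinned to 2000 counts outside satellite-like genes, deep wells counted 535 to 1381 genes with a median of 1129. Other wells counted up to 1355 with a median of 719, with 5 shallower other wells and 0 deep wells left out. Without thinning the medians were 2809 and 1013. After thinning, 22 of 25 deep wells lay above the median of the other wells. The single most counted gene outside the satellite-like list took 0.305% to 4.44% of those counts in deep wells, with a median of 1.1%, and 0.540% to 40.2% with a median of 2.76% in other wells.

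Genes with no count in the 3-prime wells made up much of this spread. The 10456 protein-coding genes of this kind took 25.1% of the counts outside satellite-like genes in deep wells and 12.9% in other wells. Single deep wells ranged from 4.37% to 33.2% with a median of 27.3%, and other wells from 1.5% to 31.3% with a median of 11.4%. The deep well at 4.37% was the exception, since 24 deep wells lay above the median of the other wells. Annotation classes shifted in the same direction: processed pseudogenes, which are copies of expressed messages, took 3.93% against 7.67%, while unprocessed pseudogenes took 1.7% against 0.830% and antisense genes 2.3% against 1.5%.

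Long genes took more of the counts of deep wells. Annotated genes were put in 4 length classes of equal number. The class with the longest merged exons, 4116 bp or more, took 49.5% of the counts outside satellite-like genes in deep wells, 38.5% in other wells and 35.1% in 3-prime wells. The shortest class, up to 483 bp, took 4.55%, 8.36% and 5.94%. In single deep wells the longest class took 35.6% to 55.3% with a median of 50.2%, and in other wells 12.1% to 57.8% with a median of 40.5%. By gene span, introns included, the longest class took 44.1% against 34.2%. For coding genes counted in 3-prime wells, the Spearman correlation across genes of count with exon length was 0.39 in deep and 0.20 in other wells. For genes uncounted in 3-prime wells it was 0.41 and 0.47. Genes are not independent replicates, and these correlations are descriptions.

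**Figure D4:**
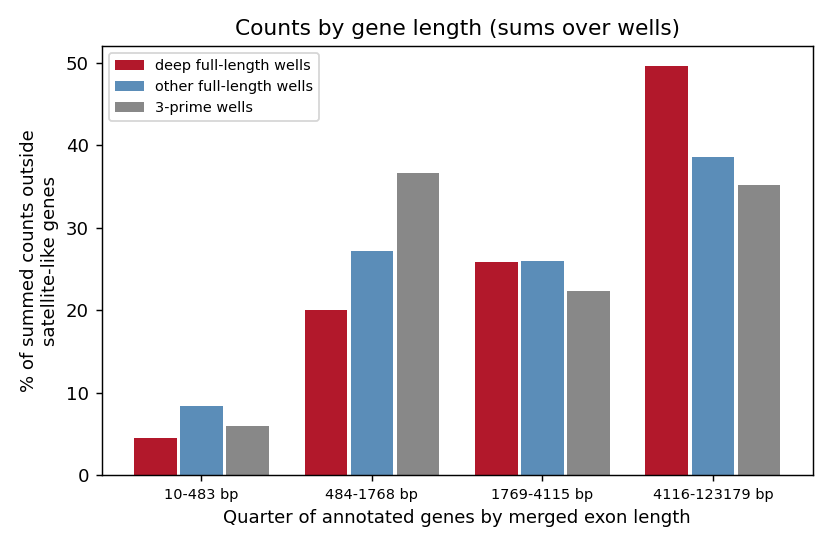
Share of summed counts outside satellite-like genes (vertical axis, %) in the 4 classes of annotated genes by merged exon length (horizontal axis, bp), for deep full-length wells (red), other full-length wells (blue) and 3-prime wells (grey). The longest class holds 49.5%, 38.5% and 35.1%.

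Lists of very long, tissue-restricted genes took larger summed shares on the same scale, but their members differed. Very long neuronal genes had a ratio of 2.6, and 13 of 21 measured were 2-fold higher, with a median log2 difference of 1.44 against 0.59 for all genes measured on this scale. Axonemal dynein heavy chains, motors of cilia, had a ratio of 1.79, with 6 of 15 higher and a median of 0.89. Their ratio lay below the 1.94 of all coding genes uncounted in 3-prime wells. Giant genes of skeletal muscle and heart such as Ttn had a ratio of 1.36, yet only 3 of 15 were 2-fold higher and their median of 0.13 lay below that of all genes. Over all counts 8 of 14 of these giant genes were 2-fold lower. Of 10 mucins, 6 were 2-fold higher outside satellite-like genes, while over all counts 1 of 7 was higher and 4 were lower. Of all genes measured, 41.3% were 2-fold higher outside satellite-like genes. Over all counts 10.7% were 2-fold higher and 52.5% lower. The dynein count, and the counts of giant genes and mucins over all counts, lay close to these shares. Syt1, a calcium sensor of synaptic vesicles, had 58 counts in 5 deep wells and 14 counts in 7 other wells. Abca14, a lipid transporter gene, had 63 counts in 6 deep and 34 in 7 other wells, a log2 difference of 0.70 that turned to -1.565 with the limit at 160000 and to -2.99 with title number 1. Muc5b, a gel-forming airway mucin, was at 114.1 CPM, from 10 deep wells, and 18.3 CPM, from 16 other wells, a log2 difference of 2.6 in CPM over all counts. A single deep well held 41.0% of the Muc5b counts in that class, and with the limit at 160000 the difference was -0.34. Fanca, a DNA repair gene, was at 19.0 CPM, from 9 deep wells, and 36.6 CPM, from 10 other wells, a log2 difference of -0.91. A single other well held 62.5% of the Fanca counts in its class, and the difference was 1.25 with the limit at 40000, 1.075 without posterior 3 months and -0.037 by the mean of wells.

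Counts on the sex chromosomes were compared over coding genes uncounted in the 3-prime wells. In summed counts per kilobase of exon, X-linked genes had 0.735 of the autosomal level in deep wells and 0.583 in other wells. Y-linked genes had 1.3 and 1.3. Single autosomes ranged from 0.755 to 1.36 in deep wells and from 0.796 to 1.3 in other wells. The X chromosome lay below the lowest autosome in both classes, by less in deep wells.

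Gene by gene, the scale decides how many genes are higher. Counts were summed per class and given as CPM over all counts, and the log2 difference was taken after adding 1 CPM. Of 11761 genes at 10 CPM or more in either class, 10.7% were 2-fold higher and 52.5% 2-fold lower in deep wells, with a median log2 difference of -1.11. With CPM over counts outside satellite-like genes, 22116 genes were measured, 41.3% were 2-fold higher and 24.7% 2-fold lower, with a median of 0.59. Each list is read against these medians.

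All 20 housekeeping genes were 2-fold lower over all counts, with a median of -3.07, and 19 of 20 were 2-fold lower outside satellite-like genes, with a median of -1.94. Of 83 ribosomal protein genes measured, 81 were 2-fold lower (median -2.94), and 67 of 86 on the other scale (median -1.90). Actb was at 348.6 CPM in deep wells and 2143 CPM in other wells. Tmsb4x, an actin-binding peptide, was counted in 52.0% of deep and 73% of other wells, at 84.7 and 1531 CPM, a log2 difference of -4.16. Mitochondrially encoded genes had a median of -1.36, a little below the -1.11 of all genes. Of 26 measured, 21 were 2-fold lower and 0 higher, against 52.5% of all genes lower. Outside satellite-like genes they took 6.80% against 8.55% of the counts. On that scale 5 of 28 were 2-fold higher and 4 lower, with a median of -0.15 against 0.59 for all genes. Immediate early genes, which rise within minutes of stress or stimulation, were 2-fold lower for 13 of 17 and higher for Fosl2 alone, with a median of -2.38. Fos was at 32.2 against 387.7 CPM and Egr1 at 7.54 against 127.1 CPM.

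Smooth muscle and macrophage markers lay far below the median of all genes. All 8 smooth muscle markers were 2-fold lower (median -3.91), and their share outside satellite-like genes was 7.47 times lower (6.84 to 8.18). Tpm2, a muscle tropomyosin, was counted in 16.0% of deep and 27.6% of other wells, with a log2 difference of -6.03. Myl9 and Myh11, a light and a heavy chain of smooth muscle myosin, had -5.05 and -4.23. The group ratios for this list were 13.7, 15.5, 1.98 and 6.66 times lower in anterior and posterior 3 months and anterior and posterior 18 months. Of 12 macrophage markers, 10 were 2-fold lower (median -3.59), and Cd74, the invariant chain of antigen-presenting cells, was at 50.4 against 1867 CPM. A single other well held 46.5% of the Cd74 counts in its class, and with the limit at 40000 the log2 difference of Cd74 turned from -5.18 to 0.85. The macrophage chemokine gene Pf4 was at 0 counts in deep wells and 103.4 CPM in other wells. In summed counts Pf4 was at least 132.6-fold lower, with a floor of 3 counts over the deep wells. Only 7.36% of other wells counted Pf4, so its absence from the deep wells says little.

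Over all counts, erythrocyte and granulocyte markers had the lowest medians of the marker lists, but rested on few other wells. All 6 erythrocyte markers measured were 2-fold lower (median -5.72). Hba-a1, a haemoglobin chain, was counted in 5 deep and 38 other wells, at 39.0 against 3053 CPM. The list's share was 31.1 times lower over all groups and only 1.3 times lower in anterior 3 months. All 4 granulocyte markers measured were 2-fold lower (median -4.76), and S100a8, an abundant neutrophil protein, was at 0 counts in deep wells and 747 counts in 8 other wells. All 6 lymphocyte markers measured were 2-fold lower, with a median of -3.63. The 8 granulocyte genes had 77 deep and 1468 other counts, so they were measured mainly through the other wells, which favours a lower call. Outside satellite-like genes, 4 of 7 granulocyte markers were 2-fold lower and 1 higher (median -1.34). On that scale 6 of 9 lymphocyte markers were lower and 1 higher (median -1.44), and 6 of 7 erythrocyte markers lower (median -4.81).

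By their medians over all counts, endothelial and arachnoid markers lay near the median of all genes, and fibroblast and pericyte markers below it. Endothelial markers had a median of -1.33 and took 0.239% against 0.197% of counts outside satellite-like genes, with group ratios of 2.08, 2.76, 0.730 and 1.03. Vwf, the clotting factor of endothelium, was at 102.7 and 102.6 CPM. In arachnoid markers the median was -0.80, and Ptgds, a prostaglandin synthase of the meninges, was at 686 against 2838 CPM, with 50.2% of its deep counts in 1 well. Fibroblast markers had a median of -2.02, and 8 of 10 were 2-fold lower, against 52.5% of all genes. The collagen gene Col1a1 was the 1 higher, at 28.9 against 12.9 CPM in 8 and 10 wells. Pericyte markers had a median of -1.82 with 6 of 7 lower, and their share outside satellite-like genes was 2.73 times lower (2.388 to 3.137). The defining pericyte markers Rgs5 and Higd1b were at 0 counts in all deep wells, but Rgs5 was counted in only 9.20% of other wells. Markers of neurons and glia had small sums: neuron markers took 0.0354% against 0.0172% of counts outside satellite-like genes, astrocyte markers 0.0651% against 0.0330% and Schwann cell markers 0.0551% against 0.0266%. Their ratios of 2.06, 1.97 and 2.08, and 2.04 for ependymal and choroid plexus markers, were below the ratio of the silent receptors. They lay near the 1.94 of all coding genes uncounted in 3-prime wells. On this scale 5 of 8 neuron, 2 of 8 astrocyte, 4 of 8 Schwann cell and 2 of 6 ependymal and choroid plexus markers were 2-fold higher, against 41.3% of all genes. Their medians were 1.04, 0.92, 0.45 and 0.85, against 0.59 for all genes. Oligodendrocyte markers had a ratio of 1.06 whose interval of 0.902 to 1.243 included 1.

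**Figure D5:**
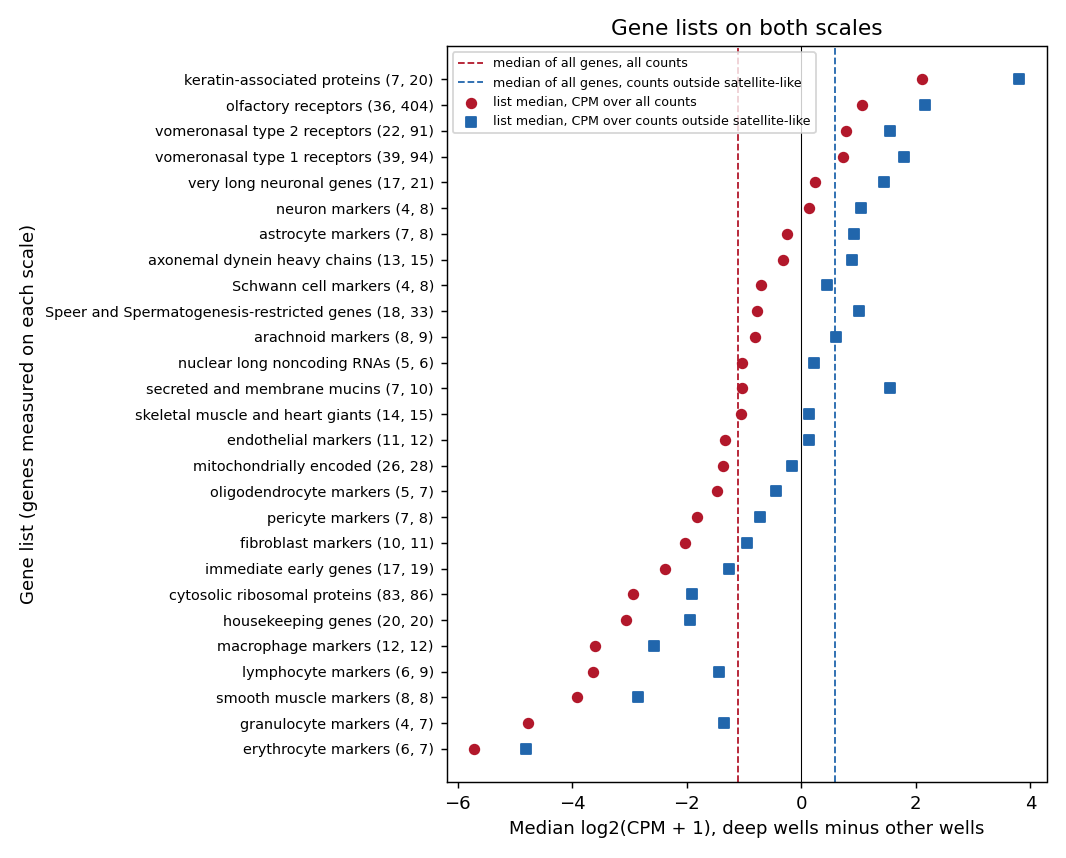
Median log2 difference of CPM + 1 between deep and other wells (horizontal axis) for each gene list with 4 or more genes measured (vertical axis, number measured on each scale in parentheses). Red circles use CPM over all counts, blue squares CPM over counts outside satellite-like genes, and dashed lines show the medians of all genes, -1.11 and 0.59. Erythrocyte, smooth muscle, macrophage and housekeeping lists lie far below both lines and receptor lists above them.

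Few single genes were higher across deep wells in CPM over all counts, the scale of the naming rule. Satellite-like genes took 80.3% of all counts in deep and 54.6% in other wells, which lowers the CPM of other genes in deep wells. Outside satellite-like genes, 41.3% of the genes measured were 2-fold higher, so the small number below depends on the scale. Only 3 genes met the rule for naming in the higher direction, 0.0255% of the genes measured, while 1.071% met it in the lower direction. Zfp980 and Zfp992, zinc finger genes of a cluster of similar genes on chromosome 4, were counted in 12 deep wells each, with log2 differences of 2.86 and 1.1. Their copies may share reads, so both values are uncertain. Zfp980 was at 0.33 with the limit at 160000 and 0.56 with title number 1, and Zfp992 at 0.45 with title number 2, all short of 2-fold. Trip4, a transcription coactivator gene, had a log2 difference of 1.2 and was counted in 11 deep and 13 other wells, and was at 0.28 and 0.096 with the limit at 40000 and 160000. It overlaps Pclaf on the opposite strand, which had 38 counts in deep wells, where Trip4 was at 59.0 CPM. Among the 12 lowest were Myl6 (-4.56) and Tuba1a (-4.33), of the cytoskeleton, Atp5b (-4.70), of the mitochondrial ATP synthase, and Sparcl1 (-4.55), a matrix protein. Timp3 (-4.64), an inhibitor of matrix proteases, lies inside Syn3 (-4.52) on the opposite strand, and Wdr38 (-4.14) overlaps the ribosomal protein gene Rpl35. The strand setting of the counting is not given, so reads of these pairs cannot be told apart.

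The share of wells with a count was also compared at 2000 counts outside satellite-like genes. Olfactory receptors were counted in 25 of 25 deep wells and 82.3% of the other wells, with medians of 20 and 7 counts. Vomeronasal type 1 receptors were counted in 25 of 25 deep wells and 53.8% of the other wells, with medians of 11 and 1. Housekeeping genes had medians of 8 and 33.5 counts and ribosomal proteins of 11 and 23. Any smooth muscle marker was counted in 16 of 25 deep wells and 60.13% of other wells, and any macrophage marker in 10 of 25 and 41.77%. By this measure these 2 lists hardly differed. Any fibroblast, endothelial or pericyte marker was counted in a larger share of deep wells, and any lymphocyte or erythrocyte marker in a smaller share. Any granulocyte marker was counted in 4 of 25 deep wells (16.0%) and 10.8% of other wells. Smooth muscle and macrophage markers differed with a limit of 3 markers. At least 3 smooth muscle markers were counted in 0 of 25 deep wells and 23.4% of other wells, and at least 3 macrophage markers in 4% (1 of 25 wells) and 13.3%. With no thinning, these shares were 20% and 31.9% for smooth muscle and 16% and 16.6% for macrophages, so the macrophage shares were close without thinning. Other lists at the limit of 3 markers after thinning went either way. Endothelial markers reached it in 24.0% of deep and 17.1% of other wells, arachnoid markers in 12.0% and 6.96%, and fibroblast markers in 4.0% and 3.80%. Pericyte markers reached it in 0 and 5.06%, and erythrocyte markers in 4.0% and 5.06%. Fewer cells of a type among the deep wells and less of its RNA per well cannot be told apart here.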

How the data were processed

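Raw counts of 39179 genes in 472 wells came from a table deposited by the authors. Per the submitters' processing notes, STAR 2.7.0a and the build mm10 were used. How reads were counted, on which annotation and strand, is not given in the sources used here. Per the file headers, wells are full-length (356) or 3-prime (116). For 11 wells the lowest value was above 0; their values, deposited by the authors, were treated as a score of unknown scale and left out. Symbols and GRCm38 coordinates were matched by gene ID to GENCODE M21 for 37693 genes. Per class, counts were summed, given as CPM and compared as log2 after adding 1 CPM, for genes at 10 CPM or more. Total counts per kept well are given in the report. Intervals are exact Clopper-Pearson or conditional binomial, at 95%. Python 3.11.15, numpy 2.4.6, pandas 2.3.3 and scipy 1.17.1 were used, and the gene comparison was tested on simulated data.

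The members and lists were chosen with earlier results of these data known. Named genes had 50 CPM or more in the higher class, counts in at least 25% and 5 of its wells, no well with over 50% of them, 2-fold the same way by summed and by mean CPM, and 1 direction in each title group with 3 or more wells per class; the 12 most changed were taken, without satellite-like, mitochondrial, ribosomal protein, pseudogene, predicted or clone-named genes. Fanca, Vmn1r121, Abca14, Syt1 and Muc5b were named from earlier results. Other named members of lists, the comparison of 25-base words, the sets of other wells by satellite-like share and the split by counts outside satellite-like genes were chosen after the values were seen. Alternatives were other limits, scales, filters and left-out wells.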

Additional observations from a re-analysis of the deposited data

Results flagged for a closer look

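Within the deep wells of a title group, single wells stood apart on 6 of 27 combinations of group and measure, where the gap to the nearest well exceeded Dixon's 95% critical value. Chance gives this for about 1 in 20 groups of independent samples, and wells of 1 pool are not independent, so the values are only pointers. The total and the gene number were also used to choose the wells. In anterior 18 months, 1 of 9 deep wells had a silent receptor share of 4.44%, where the others ran from 0.712% to 2.5%. Another had 1.213% housekeeping counts, where the others reached 0.575%, and another 18.9% mitochondrially encoded counts, where the others reached 9.27%. In posterior 18 months, 1 of 7 had 5075 genes counted, where the others had 1038 to 2125. In posterior 3 months, 1 of 7 had a total of 246435, where the others reached 159513, and another 13.0% mitochondrially encoded counts, where the others reached 4.79%.

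The full-length wells with under 500 genes were used in no comparison. Silent receptors took 0.440% (0.414 to 0.468) of their counts outside satellite-like genes, with 1007 counts in 65.6% of these wells, above the 0.00131% that a count of 0 allows. Their satellite-like share was 51.6%, with a median total of 1789.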

How the results depend on the processing

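No paired analysis was possible because no difference between deep and other wells was tested and title numbers name no shared animal. The added split used counts outside satellite-like genes to choose its wells, so its satellite-like share is a description. In the added split by counts outside satellite-like genes, the satellite-like share was 3.73 percentage points lower in the 25 wells (a difference of -3.73 against 25.75 in the deep wells), the receptor ratio 1.05, the difference in the longest genes 0.22 points, and 3696 genes were 2-fold higher and 2213 lower; Cd74 was at 3.71, Tmsb4x at 0.68 and Muc5b at -0.056. With the limit at 40000 or 160000, the satellite-like difference was 28.5 or 16.5 points, the receptor ratio 2.7 or 1.83 and the length difference 9.04 or 9.72 points; Cd74 turned to 0.85 at 40000, and Muc5b to -0.34 at 160000. Only title number 1 or 2 gave 26.6 or 26.5 points, 2.2 or 2.85, 11.9 or 11.4 points, and 2616 or 1972 genes higher; 160000 gave 2629. Wells with 1000 or more genes gave 25.6 points, 2.2 and 10.4 points. Without wells of conflicting age the values were 26.0, 2.6 and 12.2, and without the deepest well 25.9 and 2.4. Without anterior 3 months they were 25.4, 2.3 and 10.3; without posterior 3 months 26.6, 2.7 and 10.3; without anterior 18 months 25.0, 2.81 and 11.7, with 2320 genes higher; without posterior 18 months 26.1, 2.2 and 11.9. Medians of wells gave 31.3 points and 4.44, all counts a receptor ratio of 1.07, and coding genes alone a length difference of 10.8. Adding 10 CPM left 400 genes higher and 3956 lower; the filter at 50 CPM 24 and 1049, and no filter 4742 and 12828, as fewer or more genes were measured. Scales without satellite-like genes, or also without mitochondrial genes, gave 9126 and 9028 higher. Thinning to 1000 or 4000 gave gene ratios of 1.4 and 1.6, against 1.6. Between 11 and 17 of up to 19 marker and RNA lists lay below the median of all genes, against 13. The causes were not tested. Depth limits what single genes show: of 795 receptors counted in deep wells, 62 were counted in 5 or more.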
